A study of Mus musculus with 2 samples.

Results

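The genes described here are used late in the oligodendrocyte lineage, by committed precursors, newly formed oligodendrocytes and myelin-forming cells. They number 9 of 19938 genes on the array: Enpp6, Gpr17 and Bcas1, which mark committed precursors and newly formed cells, and Cldn11, Mbp, Cnp, Ugt8a, Gjc3 and Cd9, whose products build or line the myelin membrane. They were chosen by name, with their values on these arrays already known, so those values are a description and cannot support a choice that was made with them. Each was measured by a single probe set that the platform annotation gives to that gene alone. No probe set shared between several genes named any of them.

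Neural precursor cells came from the forebrain of Jcl:ICR mouse embryos at stage E11.5 and were kept with FGF2 and EGF, the factors that hold such cells in division. One culture received a control retrovirus and the other a retrovirus carrying HMGN1, a protein that binds nucleosomes. Both were replated 3 days later on poly-D-lysine and held for 1 day without FGF2 and EGF before total RNA was taken. The share of cells that carried each virus, the promoter that drove HMGN1, and the number of embryos or cultures behind each RNA are not given in the sources used here. There were 2 arrays, 1 per virus, so no difference has a replicate check and no test between the viruses was possible.

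Oligodendrocytes arise from progenitors that carry PDGFRA and the proteoglycan NG2. On leaving the cell cycle these pass through a short committed stage marked by GPR17, then a newly formed stage marked by ENPP6 and BCAS1, before they wrap axons. Myelin is a stack of membrane that is held together by basic protein, sealed by claudin-11 strands and rich in galactolipids. In the mouse forebrain most of this takes place after birth, so cultures of embryonic precursors are an early stage at which to measure these genes.

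The sequences upstream of an annotated transcription start are shown first, because their base content differs widely between the genes. Of the 9 genes, 6 (Enpp6, Cldn11, Cnp, Ugt8a, Gjc3 and Cd9) had an entry in the RefSeq promoter table of build GRCm38.p6, and 4 are printed 5′ to 3′ on the gene's own strand. Capitals mark CpG dinucleotides, the sites of DNA methylation. Enpp6 had the greatest difference between the viruses, Cldn11 the greatest among the myelin genes, Cnp the smallest, and Gjc3 the fewest CpG sites. They lie at chr8:46986637-46986886 on the plus strand, chr3:31149670-31149919 on the plus strand, chr11:100574689-100574908 on the plus strand and chr5:137963099-137963348 on the minus strand.
Enpp6: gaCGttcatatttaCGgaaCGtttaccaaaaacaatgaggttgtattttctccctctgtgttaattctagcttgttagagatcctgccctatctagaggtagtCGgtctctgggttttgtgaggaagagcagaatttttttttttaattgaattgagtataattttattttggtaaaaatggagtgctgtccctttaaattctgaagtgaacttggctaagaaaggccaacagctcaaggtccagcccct
Cldn11: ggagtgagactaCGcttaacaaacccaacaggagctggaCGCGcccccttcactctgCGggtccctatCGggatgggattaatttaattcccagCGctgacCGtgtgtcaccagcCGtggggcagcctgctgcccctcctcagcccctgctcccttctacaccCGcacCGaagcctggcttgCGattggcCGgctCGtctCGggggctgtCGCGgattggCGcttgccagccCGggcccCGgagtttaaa
Cnp: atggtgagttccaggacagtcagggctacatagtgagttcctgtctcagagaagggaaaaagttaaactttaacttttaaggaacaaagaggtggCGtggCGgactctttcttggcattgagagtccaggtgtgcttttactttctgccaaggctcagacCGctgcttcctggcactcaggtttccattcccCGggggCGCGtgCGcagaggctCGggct
Gjc3: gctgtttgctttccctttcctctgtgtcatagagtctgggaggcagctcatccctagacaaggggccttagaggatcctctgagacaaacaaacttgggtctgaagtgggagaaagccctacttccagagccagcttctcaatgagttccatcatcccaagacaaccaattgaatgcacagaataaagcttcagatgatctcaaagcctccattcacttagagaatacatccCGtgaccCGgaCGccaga

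CpG content differed widely between the windows. Over 250 bases, Enpp6 held 4 CpG sites, an observed over expected ratio of 0.44, and Gjc3 held 3, a ratio of 0.20. Cldn11 held 19 at a ratio of 0.76, Cd9 held 16 at 0.76, Cnp held 13 at 0.64 and Ugt8a held 32 at 0.99. The median ratio of all 32851 promoter windows was 0.37. The Enpp6 window lies inside the annotated span of its gene, which begins further upstream. For Cnp the last 30 bases before the start overlap the annotated span and are not printed.

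Letters that lineage factors bind were looked for on both strands of the same 250 bases. The SOX core, searched as AACAAT or ACAAAG, stood once in Enpp6, from printed base 31, and once in Cnp, from printed base 84; it was found in 24.0% of all promoter windows. A loose spelling of the site of MYRF, the myelin regulator, searched as CTGGNAC, stood at 2 places in Cnp and 1 in Cd9, against 16.1% of all windows. In Cnp one of these, from printed base 170, reads CTGGCAC. The E-box CANNTG, bound by the OLIG family and many other factors, was present in Cnp, Ugt8a, Gjc3 and Cd9 and in 66.2% of all windows. The CCAAT box stood at 2 places in Cldn11 and 1 in Gjc3, against 33.8% of all windows. The GC box GGGCGG was present in Cnp, Ugt8a and Cd9, and in 32.7% of all windows. In Cnp it is absent from the printed bases and lies at least partly in the 30 bases not printed. TATAAA was in 0 of the 6 windows and in 12.4% of all. These matches are letters in a short window only, and binding was not measured.

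All 9 genes had a higher intensity on the HMGN1 virus array than on the control virus array. Differences are given as HMGN1 virus minus control virus on the scale log2(intensity + 16), which understates the change of dim genes. The median difference was 0.28 over the 9 genes and 0.027 over all 11325 detected genes, where detected means a mean level at or over an intensity of 85.9, under which 95% of the probe sets for olfactory receptors lay, a family hardly used in these cells. At any size, 60.1% of all detected genes were higher on the HMGN1 virus array. By at least 15% on the offset scale, 7 of the 9 were higher against 4.22% of all detected genes, and 0 were lower by that ratio against 2.71%. By at least 25%, 3 of the 9 were higher against 0.494%, and by at least 50%, 0 of the 9 against 0%. Since these genes were chosen with their differences in view, nothing further is read from these counts.

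**Figure D1:**
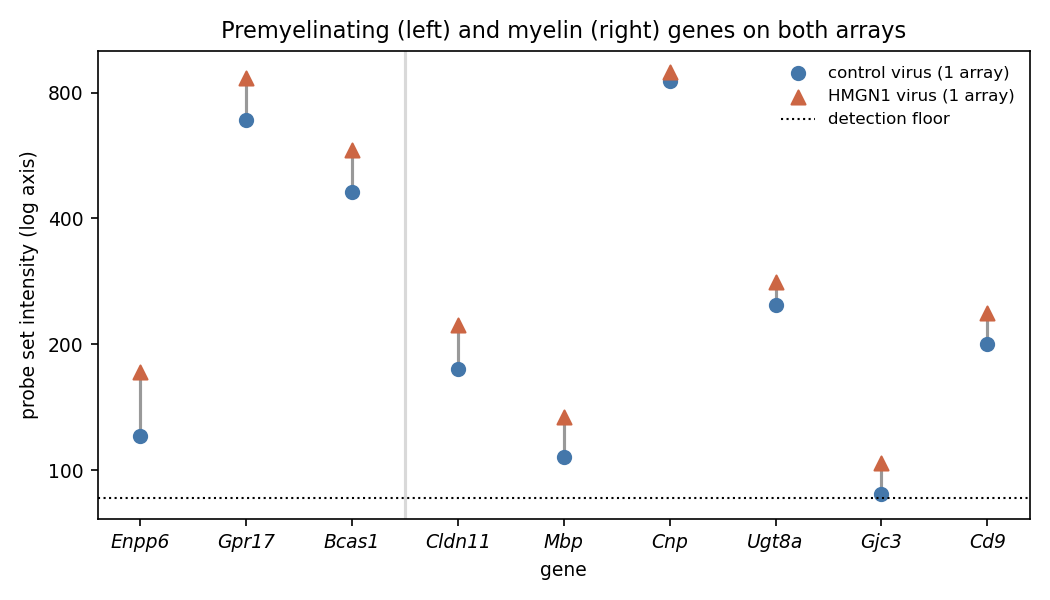
Probe set intensity of each gene on the control virus array (circles) and the HMGN1 virus array (triangles), on a log axis, with the detection floor of 85.9 as a dotted line; there is 1 array per virus and no error bar. Every triangle lies above its circle, the gap is widest for Enpp6 (121 and 172) and narrowest for Cnp (854 and 896), and Gjc3 sits next to the floor.

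The genes of committed and newly formed cells are described first. Enpp6 encodes a choline-specific phosphodiesterase that newly formed oligodendrocytes carry for a short time. The control virus array read 121 and the HMGN1 virus array 172. The log2 difference was 0.46, which is 1.37-fold with the offset and 1.42-fold as a plain ratio. It stood 6 of 11325 detected genes ranked from the highest difference down. The 2 intensities were 1.41 and 2.00 times the detection floor, so this was a dim gene on both arrays.

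Gpr17 encodes a G protein-coupled receptor that committed precursors display and lose before they myelinate. Its intensity was 686 and 869, which are 7.98 and 10.1 times the floor. The difference was 0.33, or 1.26-fold, at rank 44. Because of its brightness the choice of offset moved it little, to 0.340 with an offset of 1 and 0.315 with an offset of 64. The latter is under the 25% size of 0.322. Its plain ratio was 1.27.

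Bcas1 encodes a protein of cells that are starting to myelinate. Its intensity was 463 and 584, a plain ratio of 1.26, and the difference stood at rank 54. Its value of 0.324 lay just past the 25% size of 0.322, while Cldn11 at 0.321 lay just short of it. The division at 25% between the premyelinating and the myelin genes therefore rests on a gap far smaller than the scatter between probe sets. Without an offset Cldn11 (0.35) stood over both Gpr17 (0.34) and Bcas1 (0.33), so the order of these 3 depends on the setting.

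Among the myelin genes, those that seal and compact the membrane are taken first. Cldn11 encodes claudin-11, which forms the tight junctions between myelin layers. Its intensity was 174 and 222, a plain ratio of 1.27, and the difference of 0.32 stood at rank 58. Mbp encodes myelin basic protein, which holds the inner faces of the membrane together. Its intensity was 107 and 134, which is not far over the floor, and the difference was 0.28 or 1.22-fold at rank 101. The Mbp gene also gives golli transcripts, which other neural cells use, and the single probe set cannot tell them apart from those of classic myelin basic protein.

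Cd9 and Gjc3, both membrane proteins with 4 passes through the bilayer, had smaller differences. Cd9, a tetraspanin of the myelin surface that many other cell types also carry, had intensities of 200.1 and 237, a difference of 0.23 or 1.17-fold at rank 273. Gjc3 encodes a connexin of oligodendrocytes and Schwann cells. Its intensity was 87.5 and 104, only 1.02 and 1.21 times the floor, and the difference was 0.21 or 1.16-fold at rank 379. With other floors, at intensities of 111 and 120, Gjc3 no longer counted as detected.

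Ugt8a and Cnp had the smallest differences with the offset of 16. Ugt8a encodes the enzyme that adds galactose to ceramide, the step that makes the main myelin galactolipid. Its intensity was 248 and 282, a difference of 0.18 or 1.13-fold at rank 774. Cnp encodes a phosphodiesterase that keeps channels of cytoplasm open in myelin and is used earlier and more widely in the lineage than Mbp. It was bright on both arrays, at 854 and 896, and its difference of 0.068 (1.05-fold, rank 3890) was close to the median of all detected genes.

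**Figure D2:**
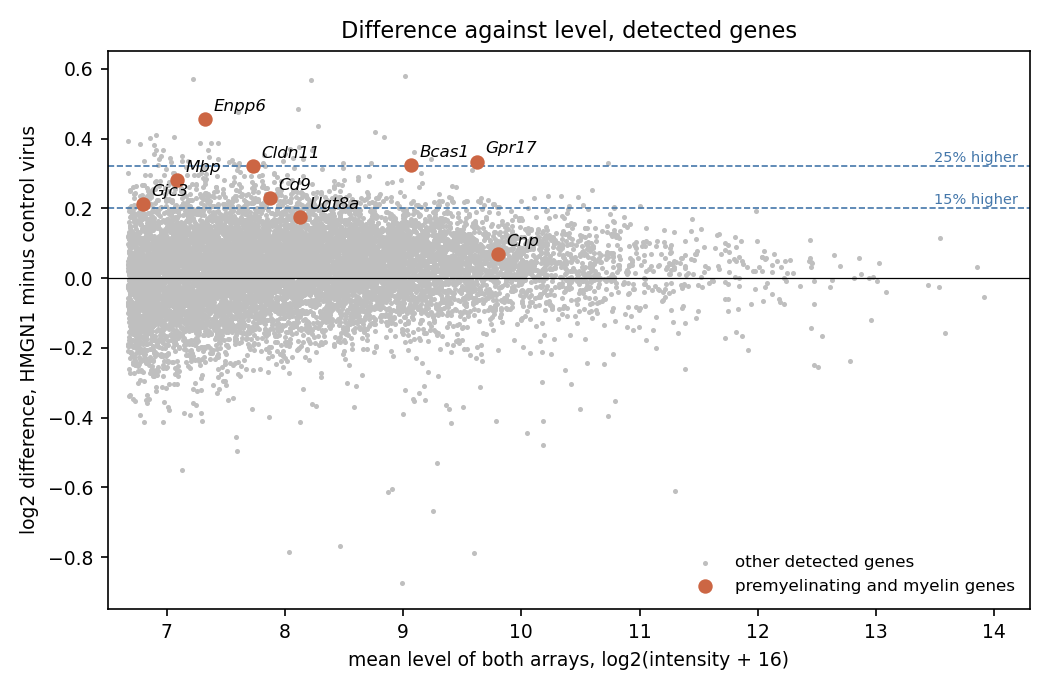
Log2 difference (HMGN1 virus minus control virus) against the mean level of both arrays for all 11325 detected genes (grey) and for the 9 premyelinating and myelin genes (orange), with dashed lines at 15% and 25% higher. Of the 9 genes, 7 lie at or above the lower dashed line at dim and bright levels alike, while Cnp lies within the mass of other genes.

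With no replicate arrays, the only measures of scatter come from within this pair. Different probe sets of 1 gene differed with an SD of 0.089 over 683 genes. All detected genes had an SD of 0.111. Among the 500 genes nearest in level, the SD was 0.119 for Enpp6, 0.120 for Mbp, 0.124 for Gjc3, 0.106 for Cldn11, 0.107 for Cd9, 0.106 for Ugt8a, 0.113 for Bcas1, 0.0945 for Gpr17 and 0.0908 for Cnp. The scatter was widest around the dimmest 3 and narrowest around the brightest 2. These figures leave out variation between cultures, RNA preparations and arrays.

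Hmgn1 itself, the check on the labels, read 230 on the control virus array and 348 on the HMGN1 virus array, a difference of 0.57 at rank 3. The cultures held markers of several cell types. Progenitor, astrocyte and neuron genes were detected together, and 13 of 14 progenitor genes, 13 of 15 astrocyte genes and 17 of 18 neuron genes passed the floor. In such bulk RNA a greater number of cells of a type and more RNA per cell cannot be told apart.

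Genes of the progenitor stage, which comes before the one marked by these 9, stood near the background. Of 13 detected progenitor genes 7 were higher, 5 were lower and Sox8 held an identical value in both columns, against 60.1% of all detected genes higher. The deposited table holds 749 such identical pairs, so they are not read as a measured lack of difference. The median of the 13 was 0.039 against 0.027, and 0 of them were 15% higher against 4.22%. The values of 6 of the 13 had been known when the list was made. Without them 7 remained, of which 4 were higher and 2 lower. Those 7 had a median of 0.039, and 0 of them were 15% higher. Nkx2-2, a transcription factor of the lineage, gave 224 and 253 (0.17) and the cadherin Pcdh15 gave 403 and 452 (0.16). Sox6, which holds progenitors undifferentiated, gave 1096 and 1180 (0.11). Olig2, the factor that founds the lineage, gave 1427 and 1272 (-0.16), and its relative Olig1 gave 1968 and 1946 (-0.016). The progenitor proteoglycan Cspg4 gave 167 and 160 (-0.059) and Cspg5 gave 681 and 656 (-0.054). Pdgfra, the growth factor receptor that defines progenitors, gave 1135 and 1213 (0.094), and Sox10, needed through the whole lineage, gave 427 and 444 (0.055). A second, dim probe set of Pcdh15 gave 0.22. Whether the stages differ could not be tested with these arrays.

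Other genes of committed and newly formed cells were spread widely. Among the 23 detected of 26 listed, 16 were higher and 7 were lower, against 60.1% of all detected genes higher. The 23 had a median of 0.10. By at least 15%, 5 were higher against 4.22% of all detected genes: the fatty acid elongase gene Elovl7 (149 and 213, 0.48), the membrane skeleton gene Epb41l2 (359 and 485, 0.42), the growth factor gene Bmp4 (229 and 302, 0.38), the myelin regulator Myrf (178 and 225, 0.31) and the adhesion gene Tns3 (497 and 577, 0.21). At the low end stood the zinc finger gene Zfp536 (131 and 107, -0.26), Rinl (96.6 and 82.1, -0.20) and the receptor gene Gpr37 (92.0 and 85.1, -0.095). Rinl and Gpr37 read under the floor of 85.9 on the HMGN1 virus array and counted as detected only by their mean over both arrays. The 5 genes at least 15% higher and Zfp536 had been listed with their values known. Without the 8 genes of the list whose values had been known, 15 remained, of which 9 were higher and 6 lower. Their median was 0.039, close to the 0.027 of all detected genes, and 0 of them were 15% higher.

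Most genes of mature myelin were under the detection floor on these arrays. Of 31 other myelin genes analysed here, 20 were under it, among them Mog (66.6 and 75.9), Mobp (50.6 and 49.2) and Opalin (34.1 and 32.8), which encode proteins of finished myelin. Mag, an adhesion molecule of the innermost myelin layer, read 67.9 on the control array and 94.1 on the HMGN1 array, a difference of 0.39, and its mean over both arrays was under the floor. Of the 11 detected, 6 were higher and 5 lower, against 60.1% of all detected genes higher. The 11 had a median of 0.044. By at least 15%, 0 were higher against 4.22% of all detected genes, and 1, Cryab, was lower against 2.71%. The highest were the tetraspanin Cd82 (202 and 224, 0.13), the actin-severing gene Gsn (195 and 213, 0.12) and Cldnd1 (704 and 750, 0.088). The lowest were the small heat shock gene Cryab (107 and 90.4, -0.21), the septin-binding gene Anln (216 and 201, -0.10) and Ndrg1 (185 and 175, -0.071).

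**Figure D3:**
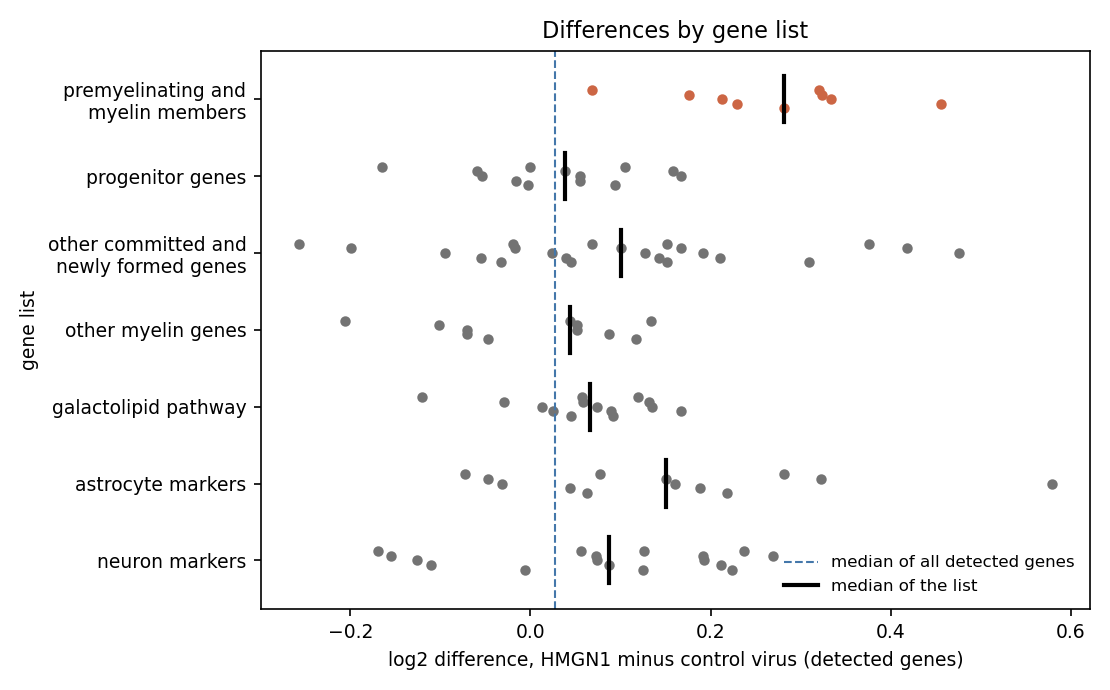
Log2 difference (HMGN1 virus minus control virus) of each detected gene, 1 point per gene, by gene list; the black bar is the median of the list and the dashed line the median of all detected genes, 0.027. The 9 premyelinating and myelin genes have a median of 0.28, the progenitor and other myelin genes lie around 0.04, and the other committed and newly formed genes run from -0.26 to 0.48.

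The pathway around Ugt8a held small differences. Of 14 detected genes of galactolipid and ceramide metabolism, 12 were higher and 2 lower, against 60.1% of all detected genes higher. The list also took in genes that carry glycolipids or turn ceramide into other lipids. Their median was 0.067 against 0.027, and 0 were 15% higher against 4.22%. Fa2h, which hydroxylates the fatty acid of myelin galactolipids, gave 124 and 130 (0.058), and Gal3st1, which adds sulphate to them, gave 109 and 116 (0.074). The highest were Sptssa (131 and 149, 0.17) and Sptlc2 (388 and 426, 0.13), subunits of the enzyme that starts sphingolipid synthesis, and the lysosomal activator gene Psap (2632 and 2891, 0.13). The lowest were the glycolipid carrier gene Gltp (624 and 573, -0.12), the sphingomyelinase gene Smpd1 (737 and 722, -0.030) and Kdsr (343 and 346, 0.013).

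Relatives of the 9 genes within their own families mostly lay near the background. Over all detected genes 60.1% were higher, 4.22% were at least 15% higher, and the median was 0.027. Of 18 detected tetraspanins other than Cd9, 11 were higher and 7 lower with a median of 0.062, and 1 was at least 15% higher, Tspan9 (144 and 170, 0.21). Cd81, a close relative of Cd9, gave 3364 and 3542 (0.074), and the lowest were Tspan17 (-0.14), Tspan33 (-0.12) and Tspan6 (-0.11). Of 20 other claudins analysed, 4 were detected, namely Cldn12 (0.15), Cldn20 (0.038), Cldn19 (0.013) and Cldn14 (-0.16), and the endothelial Cldn5 was under the floor at 72.6 and 70.5. Of 15 other connexins analysed, 5 were detected. Gja1, the main connexin of astrocytes, gave 341 and 419 (0.28), whereas Gja3 (-0.0086), Gjc1 (-0.020), Gjd3 (-0.034) and Gjd2 (-0.052) were slightly lower. Gjb1, a myelin connexin, was under the floor at 50.8 and 51.7. Enpp5 (0.13) and Enpp4 (-0.039) were the detected relatives of Enpp6, and P2ry1 (0.088) was the detected relative of Gpr17 among 11 nucleotide and leukotriene receptors analysed.

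Some of these genes are also used by cells outside the lineage, so markers of those cells are given beside them. Of 8 Schwann cell and neural crest genes analysed 2 were detected, Ngfr (0.11) and Pmp22 (-0.099), and Egr2 and Foxd3 were under the floor; the summed intensity of the list was 623 on both arrays. Of 14 genes of meninges and mesenchyme, where Cldn11 and Cd9 can be used, 6 were detected with a median of -0.056. They were Col1a2 (0.12), Pdgfrb (0.042), Zic1 (-0.052), Cspg4 (-0.059), Col3a1 (-0.12) and Col1a1 (-0.19), and their list summed to 1527 and 1492. Of 11 endothelial genes 1 was detected, Egfl7 (0.017), and the list summed to 666 and 642. Of 13 microglia genes 3 were detected, Trem2 (0.11), Cx3cr1 (0.0080) and Cd68 (-0.059), and the list summed to 826 and 821. Of 11 genes of ependyma and choroid plexus 3 were detected, Otx2 (identical in both columns), Ttr (-0.075) and Ccdc153 (-0.095), with sums of 895 and 884. Most genes of these 5 lists were under the floor, so each sum mixes dim signal with that of a few detected genes. Zic1 alone read 477 and 460 in the meninges list, and Cspg4 is also a progenitor gene. The part of such cells in the differences of the 9 genes was not tested.

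Some astrocyte and neuron markers were higher alongside the 9 genes. Of 13 detected astrocyte markers 10 were higher and 3 lower, against 60.1% of all detected genes higher. By at least 15%, 4 were higher against 4.22%, and 2 of these by at least 25% against 0.494%. The list had a median of 0.15 and a summed intensity over the list of 10372 and 11064. The highest were the intermediate filament gene Gfap (406 and 615, 0.58), the water channel gene Aqp4 (187 and 237, 0.32) and Gja1, and the lowest were Aldoc (-0.072), Fgfr3 (-0.048) and Sox9 (-0.031). Of 17 detected neuron markers 12 were higher and 5 lower, against 60.1% of all detected genes higher. By at least 15%, 4 were higher against 4.22%, and 0 of these by at least 25% against 0.494%. The neuron list had a median of 0.087 and a summed intensity of 11867 and 12449. The highest were Syt1 (0.27), Neurod6 (0.24) and Stmn2 (0.22), and the lowest Tubb3 (-0.17), Rbfox3 (-0.15) and Slc17a6 (-0.13). Their part in the differences of the 9 genes was not tested.

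The differences of the 9 genes kept their direction under each processing setting run. Centring the differences on their median over all detected genes lowered every difference by 0.027. Longer genes tended to be higher on the HMGN1 virus array: the median was 0.053 in the 1089 protein-coding genes with the longest span, introns included, and -0.027 in the 1089 with the shortest. The 9 genes spanned 6.89 kb (Gpr17) to 158 kb (Enpp6), against a median of 24.9 kb for detected protein-coding genes. With this trend removed Enpp6 stood at 0.40, Gpr17 at 0.33, Cldn11 at 0.30, Bcas1 at 0.27, Mbp at 0.23, Gjc3 at 0.20, Cd9 at 0.19, Ugt8a at 0.13 and Cnp at 0.045.

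**Figure D4:**
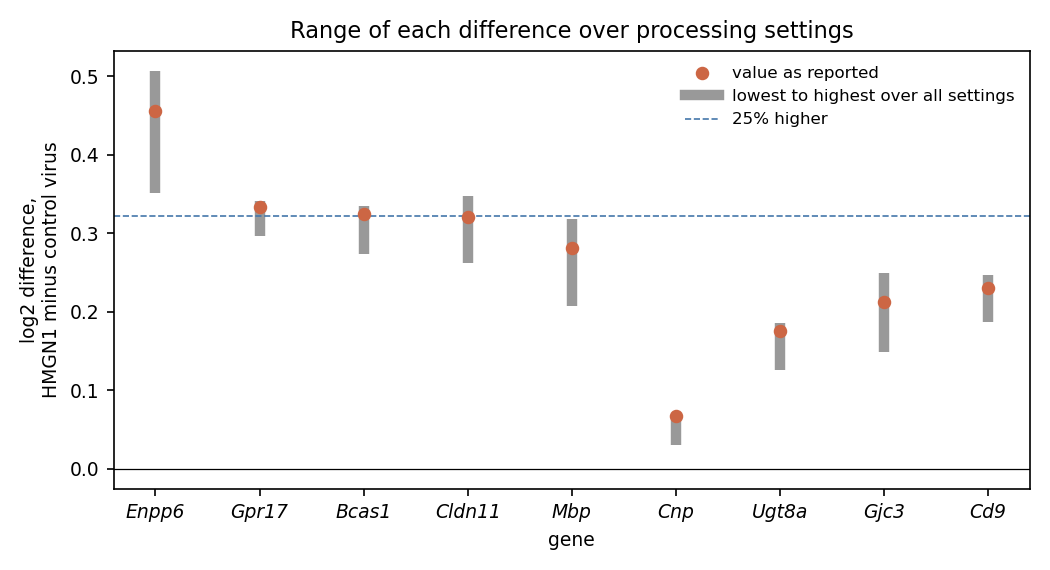
Log2 difference (HMGN1 virus minus control virus) of each gene as reported (orange) and its lowest to highest value over all processing settings (grey bar), with a dashed line at 25% higher. Each bar stays above 0, Enpp6 alone stays above the dashed line throughout (0.35 to 0.51), and Cnp comes closest to 0 (0.031 to 0.069).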

How the data were processed

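Whole-transcript 1-colour arrays measured RNA in 2 samples, 1 per virus. The deposited table holds an intensity on a linear scale for each of 28944 probe sets, as its values show; the authors' background correction, normalization and probe summary are not given in the sources used here. These intensity values were not normalized again, and the number of arrays limits the precision.

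Probe sets were named from GEO's platform annotation: 21789 had 1 gene symbol, 1621 several and 5534 none. Of those with 1 symbol, 21698 matched the RefSeq table of GRCm38.p6, which supplied gene spans. Each gene took its brightest probe set. The offset was 16, and the detection floor came from 1035 olfactory receptor probe sets. The intensity and span trends were fitted by lowess over a fraction of 0.3 (statsmodels 0.14.6, Python 3.11.15).

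A single array per virus leaves no residual degrees of freedom, and no p-value is given; the code was tested on simulated data. The members, lists, sizes and tests were chosen with earlier results of these data known. Besides the 9 genes, the rule named the 3 highest and 3 lowest detected genes of each list and 22 genes fixed by name; Tns3, Egr2 and Foxd3 were named after their values were seen. Other normalizations, offsets, floors, probe set rules and sizes were tried.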

Additional observations from a re-analysis of the deposited data

How the results depend on the processing

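No paired analysis was possible because each virus has 1 array, and for the same reason no array could be left out. The count of the 9 genes that were higher at any size stayed at 9, or at 8 where a higher floor removed Gjc3, and their median ran from 0.21 with an offset of 64 to 0.32 with an offset of 1. The count at least 15% higher, 7, ran from 5 to 7. The share of all detected genes at least 15% higher, 4.22%, ran from 1.88% with an offset of 64 to 5.58% with an offset of 1. The count at least 25% higher, 3, became 1 after centring, 1 with the intensity trend removed, 1 with an offset of 64, and 0 at a size of 50%, the last by construction; for the others the cause was not tested. It was 2 after quantile normalization or with the gene span trend removed, and 4 with an offset of 1. The share of all detected genes at least 25% higher also changed with the setting. From 0.494% it went to 0.256% after centring and to 0.318% with the intensity or the gene span trend removed. That share was 0.0883% with an offset of 64, 0.424% after quantile normalization and 0.689% with an offset of 1. Of 106 alternative values of single genes, 105 moved by less than 0.089, the SD over probe sets of a gene, and 0 changed sign. The other was Enpp6, at 0.35 with an offset of 64. The plain ratio without an offset was added after seeing the data. So were the progenitor list and the committed and newly formed list without genes of known value. Dim signal limits Gjc3, Mbp and Enpp6 most, since they lie within 2.00 times the floor of 85.9 on both arrays.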

Other observations

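Whether CpG content of the promoter went with the differences over all genes was looked at because the windows of the late oligodendrocyte genes differ in it. Among 9078 detected genes with a promoter entry, the 2658 with an observed over expected CpG ratio under 0.6 had a median difference of 0.014, and 4.74% of them were at least 15% higher. The 6420 with a ratio of 0.6 or more had a median of 0.033, with 3.86% at least 15% higher. Gjc3 and Enpp6 belong to the first class and Cldn11, Cnp, Ugt8a and Cd9 to the second. These values describe 1 pair of arrays, and genes are not independent replicates.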
